A study of Mus with 6 samples.

Results

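The 8 surface proteins Kit, Cd34, Flt3, Slamf1, Cd48, Procr, Thy1 and Tek, which are used to recognise blood stem and progenitor cells, were followed at the RNA level. Every probe that the platform annotation assigned to 1 of these 8 gene symbols was taken, without regard to its value, which gave 15 of the 45281 probes on the array and 8 of 19057 gene symbols. There were 3 samples of Klf4-deficient leukaemia stem cells (LSC) and 3 samples of wild-type (WT) LSC, all labelled as bone marrow of C57BL/6 mice with chronic myeloid leukaemia (CML). Klf4 encodes a zinc finger transcription factor. Both groups carried BCR-ABL p210, the fusion kinase that drives CML, and both were collected 14 days after transplantation. Cells were sorted as GFP-positive, lineage-negative, Sca-1-positive and c-Kit-positive (LSK), a gate that holds stem cells and early progenitors. The Klf4 allele, the means of its deletion, and the age and sex of the animals are not stated in the labels used here. RNA was hybridised to 1-colour Illumina bead arrays, with 1 array per sample. The labels do not tie the samples of a group to different mice, and a p-value therefore reflects the spread of these arrays, part of which may be technical.

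Within the LSK gate, surface proteins order cells from stem cell to progenitor. Long-term stem cells of the mouse carry Slamf1 (CD150), Procr (the endothelial protein C receptor) and Tek (the angiopoietin receptor TIE2), and a low amount of Thy1, while they lack Cd48, Flt3 and, in the adult, Cd34. Multipotent progenitors gain Cd34, Cd48 and Flt3 as they lose the capacity for long-term engraftment. Kit, the receptor of stem cell factor, is part of the gate itself. The gate reads protein at the cell surface and the arrays read RNA in the sorted cells.

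Values are intensities on a linear scale from which a background had been subtracted, so that readings below 0 occur and the lowest value on each array was -31. An intensity of 32 was used as the floor: readings at or below it were treated as not above background and have no order among themselves. Between 15.6% and 15.9% of all probes exceeded 32 on an array. WT replicate 3 stood apart, with a Pearson correlation to the other arrays of 0.287 to 0.299 across the tested probes, against 0.662 to 0.725 among the other 5 arrays, so the differences of the member probes, and the lists read beside them, are given with and without it. Klf4 itself exceeded 32 in 1 reading of its 3 probes, 51.9 in WT replicate 2, and so gave no check of the labels. No probe is annotated to Ly6a, the gene of Sca-1, so that part of the gate was not analysed here.

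Readings of the surface markers were uneven and mostly at or below 32, and 1 Thy1 probe was the only tested member probe whose groups did not overlap. That probe entered the test only through its Klf4-deficient readings, and on the other Thy1 probe the groups overlapped. Of the 15 probes, 5 stayed at or below 32 on every array, among them all probes of Slamf1 and Tek. The other 10 exceeded 32 on at least 1 array and were tested, 5 of them on 1 array only. Klf4-deficient arrays had 13 of 45 member readings above 32 and WT arrays 8 of 45. Of these readings, Thy1 ILMN_2644350 gave 3 on the Klf4-deficient and 0 on the WT arrays, and Thy1 ILMN_2474578 gave 1 and 0. By array, 4, 3 and 4 member genes exceeded 32 in Klf4-deficient replicates 1, 2 and 3, and 1, 3 and 2 in WT replicates 1, 2 and 3. In the same order, 33.3%, 20% and 33.3% of the 15 member probes exceeded it, and 13.3%, 20% and 20%. The share of all probes was 15.6% to 15.9% on each array. Flt3 was the only member above 32 in WT replicate 1, Kit, Flt3 and Procr were above it in WT replicate 2, and Kit and Cd48 in WT replicate 3. Limma, fitted to the 18270 probes above 32 on at least 1 array, called 0 probes at a Benjamini-Hochberg adjusted p under 0.05 (0%), and 371 (2.03%) reached an unadjusted p under 0.05. Accordingly, 0 of the 10 tested member probes was called. Groups did not overlap for 1 of the 10, Thy1 ILMN_2644350, against 3.09% of all tested probes. Of the 10 differences, 3 were above 0 and 7 below, with a median of -0.06 (log2), and over all tested probes 45.8% were above 0, with a median of -0.05. Without WT replicate 3, 9 member probes were still tested, with 5 differences above 0, 4 below and a median of 0.04, and the median over all tested probes was 0.06. In sorted cells measured in bulk, fewer cells of a type and less RNA per cell cannot be told apart.

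**Figure D1:**
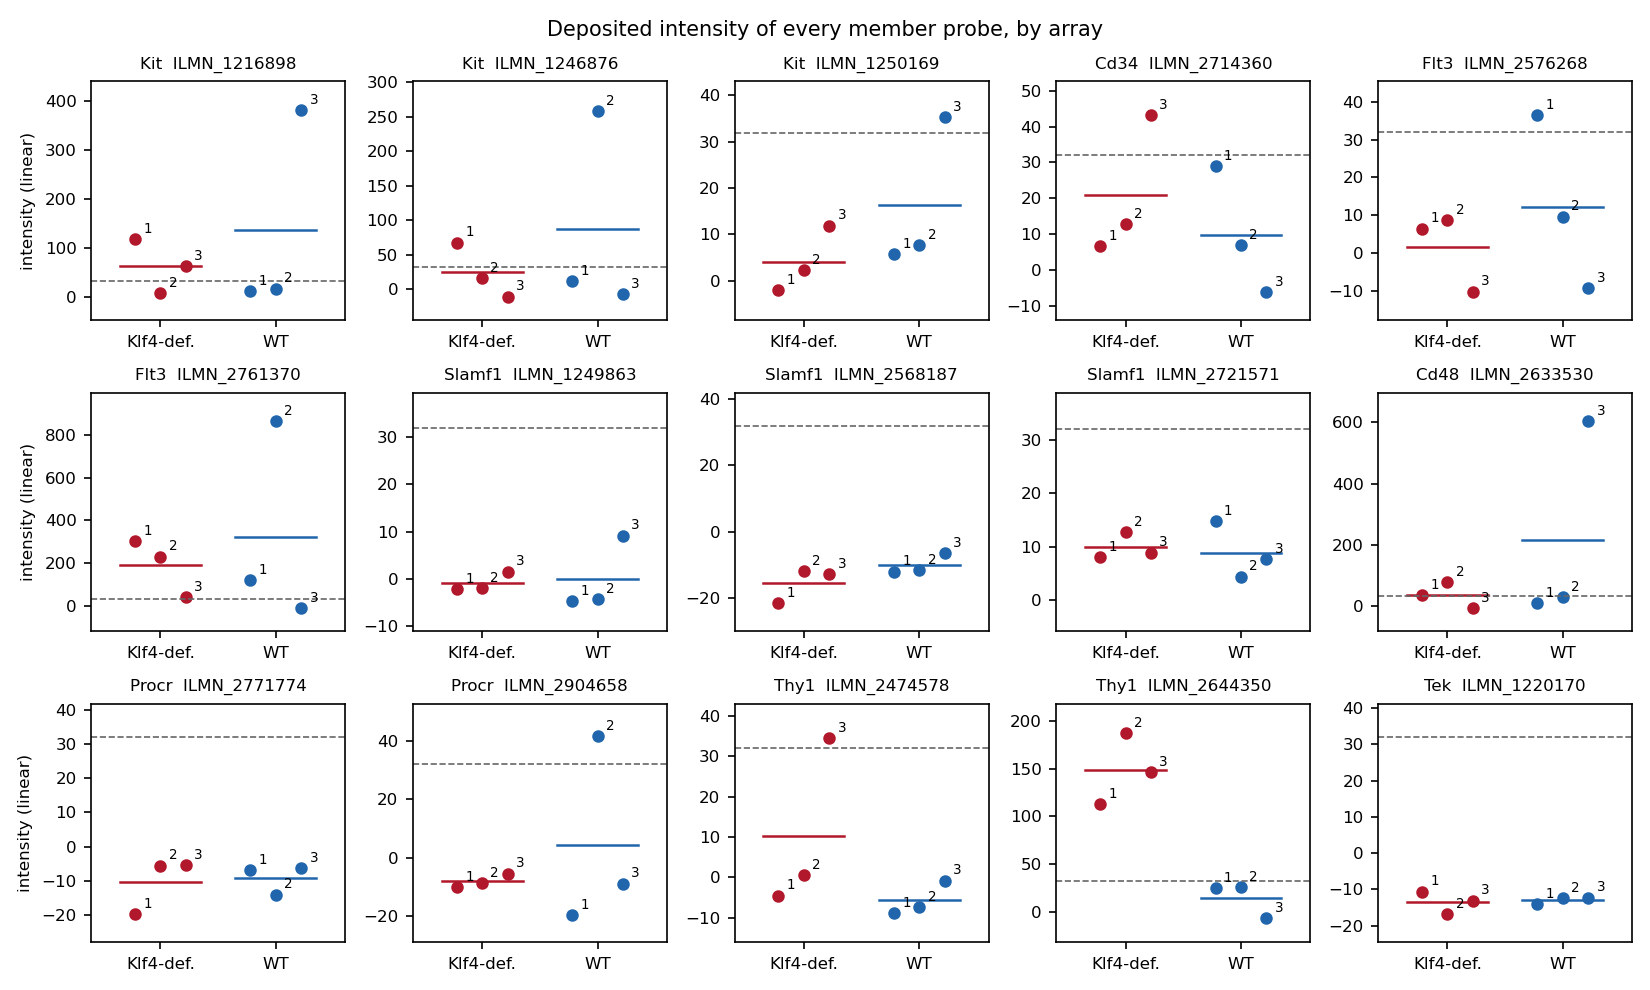
Deposited intensity (linear scale, y axis, set separately for each panel) of the 15 probes of the 8 member genes in 3 Klf4-deficient (red, left) and 3 WT (blue, right) arrays. Points carry the replicate number, the bar is the group mean and the dashed line the floor of 32. Thy1 ILMN_2644350 has all Klf4-deficient points above the floor and all WT points below it, and the highest reading of each Kit, Flt3 and Cd48 probe is on a WT array.

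Kit is the receptor tyrosine kinase that the gate selects on, and its 3 probes gave 3 different profiles. Probe ILMN_1216898, annotated to a cDNA record outside the RefSeq transcripts, read 118.1, 7.3 and 63.1 in Klf4-deficient replicates 1 to 3, against 11.5, 17.4 and 381.5 in WT replicates 1 to 3. The groups overlapped, and the highest reading lay in WT replicate 3. ILMN_1246876, annotated to a current RefSeq transcript, read 67.6, 16.2 and -10.8 on the Klf4-deficient arrays, against 12.1, 258.5 and -6.6 on the WT arrays. Here WT replicate 2 was highest and WT replicate 3 lay at background, the reverse of the preceding probe. The third probe, ILMN_1250169, also on a cDNA record, exceeded 32 only in WT replicate 3 (35.4) and lay between -2.1 and 11.9 on the Klf4-deficient arrays and at 5.8 and 7.6 in the other WT arrays. Thus 4 of the 6 arrays had a Kit probe above 32, while Klf4-deficient replicate 2 and WT replicate 1, sorted on the same gate, had none.

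The Kit differences were small beside the spread of the arrays. Klf4-deficient minus WT was -0.24 ± 1.16 on ILMN_1216898, -0.65 ± 0.95 on ILMN_1246876 and -0.05 ± 0.15 on ILMN_1250169 (log2 of floored intensity, SE, n = 3 per group), with limma adjusted p of 0.92, 0.75 and 0.88. Without WT replicate 3 the difference on the first probe turned to 0.95 ± 0.62, and that on the RefSeq probe was -1.15 ± 1.03 (adjusted p = 0.84 for each). Without WT replicate 2 the difference on the RefSeq probe turned to 0.36. The third probe gave no value without WT replicate 3, its only array above 32.

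The negative side of the gate was looked at through genes of the lineage antigens. Of 13 such genes, 10 had a probe and 8 were tested, with 4 differences above 0, 4 below and 0 called (median -0.03). Without WT replicate 3, 4 of these genes were still above 32, with 3 differences above 0, 1 below and a median of 0.32. The 1 below was Ptprc (CD45, -0.29), which read 79.5, 57.8 and 28.6 on the Klf4-deficient arrays, against 129.5, 13.1 and 15.7 on the WT arrays. Which form of Ptprc its probe reads was not looked up, so it may not stand for an antigen that the gate excludes. Cd8a and Cd8b1, the chains of the CD8 co-receptor of cytotoxic T cells, had the highest mean intensities of the list. Cd8a read 56.6, 107.3 and 141.8 on the Klf4-deficient arrays, against 72.1, 55.5 and -5.7 on the WT arrays, and Cd8b1 read 33.9, 123.5 and 105.5 against 49.2, 66.2 and 4.4. For both genes WT replicate 3 was at background and the groups overlapped. Kit also marks mast cells, whose list had 9 of 10 genes tested. Summed intensity of that list was 6492.4 to 9659.2 on the Klf4-deficient arrays and 6042.1 to 10328 on the WT arrays, with 7 differences above 0, 2 below and 0 called (median 0.38, or -0.01 without WT replicate 3, with 4 above and 5 below). Its brightest genes, Hdc (histidine decarboxylase) and Cpa3 (the mast cell carboxypeptidase), were well above 32 on all 6 arrays, from 1739.3 to 8245.9 for Hdc and from 551.5 to 1435.6 for Cpa3. The part of such cells in the Kit readings was not tested.

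Flt3, a receptor tyrosine kinase that marks multipotent and lymphoid-primed progenitors, was above background more often than the other members. Probe ILMN_2761370, on a RefSeq transcript, read 304.3, 229.9 and 42.2 in Klf4-deficient replicates 1 to 3, against 120.4, 864.1 and -12.3 in WT replicates 1 to 3. All 3 Klf4-deficient and 2 of 3 WT arrays were above 32, and the WT readings spanned those of the Klf4-deficient arrays on both sides. The difference was -0.06 ± 1.45 (log2 scale, SE, 3 arrays a group, limma adjusted p = 0.98), with a 95% interval of -3.73 to 3.61 that leaves room for large changes in either direction. It turned to 1.21 without WT replicate 2 and to 0.82 without Klf4-deficient replicate 3, and it was -1.17 ± 1.32 without WT replicate 3 (adjusted p = 0.84). ILMN_2576268, on a cDNA record, read 6.4, 8.7 and -10.3 on the Klf4-deficient arrays, against 36.4, 9.6 and -9.4 on the WT arrays, so that 1 WT reading passed the floor. Its difference was -0.06 ± 0.16 (adjusted p = 0.85), and -0.09 without WT replicate 3.

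Flt3 is also a gene of dendritic cells and their precursors. Of 11 genes of that list, Flt3 included, 7 were tested and all 7 had differences below 0, of which 0 were called, with a median of -0.47 (log2), or -1.09 over the 6 still above 32 without WT replicate 3. Among the 7, Siglech (-0.0039) and Flt3 (-0.06) lay near 0 with all arrays. H2-Eb1 and Batf3 each exceeded 32 on 1 WT array only. Summed intensity was 1534.6 to 3427.6 on the Klf4-deficient arrays and 2744.4 to 4484.1 on the WT arrays. The largest part of that sum on each array came from Siglech, a lectin of plasmacytoid dendritic cells, which read 1167.1, 2452.3 and 2870.3 on the Klf4-deficient arrays, against 4102.6, 1515.8 and 1331.9 on the WT arrays. H2-Ab1, a class II histocompatibility chain, read -4.3, 43.2 and 1.5 on the Klf4-deficient arrays, against 103, 417 and 1167.1 on the WT arrays, a difference of -3.38 ± 0.91 (limma adjusted p = 0.71), which was -2.55 without WT replicate 3. Its 2 groups did not overlap, which held for 0.958% of all tested probes in that direction. Only the brightest of the 3 H2-Ab1 probes was read. H2-Aa, another class II chain of the list, read 46, 36.3 and 10.4 on the Klf4-deficient arrays, against 15.7, 182.9 and 10.1 on the WT arrays. The groups of H2-Aa overlapped. Cd74, of the same list, read 0.4, 648.7 and -4.6 on the Klf4-deficient arrays, against 93.6, 402.3 and 161.9 on the WT arrays. Its groups overlapped, with the highest reading in Klf4-deficient replicate 2. Itgax, Xcr1, Irf8 and Bst2 stayed at or below 32 on every array. The part of dendritic cells in the Flt3 readings was not tested.

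Tek, the TIE2 receptor of stem cells and endothelium, was not above background on any array. Its probe ILMN_1220170 read -10.6, -16.8 and -13.1 on the Klf4-deficient arrays, against -14, -12.5 and -12.3 on the WT arrays. A difference in Tek was therefore not detectable at this signal. Of the genes of endothelium and stroma, 10 of 14 were tested, with 2 differences above 0, 8 below and 0 called, and a median of -0.48 that was 0.01 without WT replicate 3. The endothelial genes were not uniform. Cdh5 and Vwf, the latter also on the megakaryocyte list, did not exceed 32 on any array. Pecam1 read 42, 7.9 and 50 on the Klf4-deficient arrays, against 47.5, 9.4 and 100.9 on the WT arrays. Kdr (93.5) and Plvap (184.6) exceeded 32 in WT replicate 3 only, Tie1 (125.9) in WT replicate 2 only and Emcn (32.6) in Klf4-deficient replicate 1 only. Cxcl12, a chemokine of marrow stroma, read 18, 8 and 11.9 on the Klf4-deficient arrays, against 24.5, 3.9 and 266.5 on the WT arrays, and Egfl7, a secreted endothelial factor, read 32.4, -7.2 and 36.1 against 232.2, 11.3 and 4.4.

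The ligands and binding partners of the member proteins were mostly at background. Of 11 genes, 10 had a probe and 4 were tested, with 2 differences above 0, 2 below and 0 called (median 0.01, or 0.35 without WT replicate 3, with 3 above and 1 below). Kitl (stem cell factor), Flt3l (the Flt3 ligand), Angpt2, Angpt4, Cd2 (a partner of Cd48) and Proc (protein C) stayed at or below 32 on all arrays. Angpt1, the agonist ligand of Tek, read 63.4, 56.8 and 81.6 on the Klf4-deficient arrays, against 38.3, 19.5 and 13.2 on the WT arrays. The 2 groups did not overlap, a pattern shared by 2.13% of all tested probes in that direction, and the difference of 0.97 ± 0.21 (log2 scale, SE, 3 arrays a group) did not pass the test (limma unadjusted p = 0.0057, adjusted p = 0.71). It was 0.93 without WT replicate 3. Selp, P-selectin, read 134.4, 19.5 and 30.9 on the Klf4-deficient arrays, against 32.6, 28 and 118.6 on the WT arrays.

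Slamf1 and Cd48 belong to the SLAM family of immune receptors, and their opposed surface patterns separate stem cells from progenitors. Slamf1 stayed at or below 32 with each of its 3 probes. The brightest, ILMN_2721571, read 8, 12.7 and 8.9 on the Klf4-deficient arrays, against 14.7, 4.4 and 7.6 on the WT arrays. ILMN_1249863 ranged from -2.2 to 1.5 in Klf4-deficient and from -4.8 to 9.1 on the WT arrays, and ILMN_2568187 from -21.7 to -12 and from -12.1 to -6.4. Thus 0 of the 18 Slamf1 readings gave a signal above the floor, and a difference was not detectable.

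Cd48, a lipid-anchored partner of CD2 and CD244, had 1 probe, ILMN_2633530. It read 36, 77.9 and -7.8 on the Klf4-deficient arrays, against 10, 29.3 and 603.7 on the WT arrays. Klf4-deficient replicates 1 and 2 and WT replicate 3 were above 32, and WT replicate 3 was far above the rest. The difference was -0.93 ± 1.29 (log2 scale, SE, 3 arrays a group, limma adjusted p = 0.74) and turned to 0.48 ± 0.47 without WT replicate 3 (adjusted p = 0.84). Its receptor Cd244a exceeded 32 only in WT replicate 2 (66.3) and lay between 19.2 and 23.5 on the Klf4-deficient arrays.

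Cd34, a sialomucin of progenitors and endothelium, and Procr, the receptor of activated protein C, each passed the floor on 1 array. Cd34 ILMN_2714360 read 6.6, 12.8 and 43.2 on the Klf4-deficient arrays, against 28.9, 6.9 and -6.2 on the WT arrays. Its difference of 0.14 ± 0.19 (limma adjusted p = 0.74) rests on Klf4-deficient replicate 3 alone and was again 0.14 without WT replicate 3. Procr ILMN_2904658 read -10.2, -8.8 and -5.5 on the Klf4-deficient arrays, against -19.7, 41.6 and -8.9 on the WT arrays. That difference of -0.13 ± 0.18 (adjusted p = 0.75) rests on WT replicate 2 alone and was -0.19 without WT replicate 3. The second Procr probe, ILMN_2771774, lay between -19.7 and -5.4 on the Klf4-deficient arrays and between -14 and -6.3 on the WT arrays. Standard errors of such probes are small because floored readings have no spread, and do not measure how well a low level was known.

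Thy1 is a small lipid-anchored immunoglobulin-like protein of T cells, also present at low density on mouse stem cells. On 1 of its probes it had the clearest separation of the members. Probe ILMN_2644350, on a RefSeq transcript, read 113, 187.2 and 146 in Klf4-deficient replicates 1 to 3, against 24.4, 26 and -7 in WT replicates 1 to 3. All Klf4-deficient readings were above 32 and all WT readings below it. The mean log2 intensity on the Klf4-deficient arrays was 7.19 ± 0.36 (SD, n = 3), at least 4.55-fold above the floor at which the WT arrays lay. The difference of 2.19 ± 0.24 (log2 scale, SE, 3 arrays a group) is a lower bound and did not pass the test over all probes (limma unadjusted p = 0.0002, adjusted p = 0.59). The probe entered the test only through its Klf4-deficient readings, and the WT group, set to the floor on every array, adds no spread to the error. For the same reason leaving out any WT array returned the same 2.19 (adjusted p = 0.46 without WT replicate 3). The unadjusted p was 0.052 when the variance was modelled with trend and robust eBayes.

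The second Thy1 probe did not repeat the separation. ILMN_2474578, for which the annotation names no sequence record, read -4.5, 0.6 and 34.6 on the Klf4-deficient arrays, against -8.9, -7.3 and -0.8 on the WT arrays. Only Klf4-deficient replicate 3 passed the floor, and the difference, again 0.04 without WT replicate 3, was 0.04 ± 0.15 (log2 scale, SE, 3 arrays a group, limma adjusted p = 0.91). With the mean of both probes in place of either, the Thy1 difference was 1.11 ± 0.14 (limma adjusted p = 0.55).

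Because Thy1 is abundant on T cells, T and NK cell genes were read beside it. Of 19 such genes, 16 had a probe and 11 were tested, with 5 differences above 0, 6 below and 0 called (median -0.09, or 0.59 over the 7 still above 32 without WT replicate 3). Of the CD3 chains, which define T cells, Cd3d and Cd3e exceeded 32 in WT replicate 3 only, at 225.4 and 56.3, and Cd3g in Klf4-deficient replicate 2 only, at 51.6. Cd2, Cd5, Cd7, Cd28 and Klrd1 stayed at or below 32 on every array. Summed intensity of the list was 1956.1 to 2219.9 on the Klf4-deficient arrays and 726.9 to 1932 on the WT arrays, and on all arrays but WT replicate 3 most of it came from Lat, a signalling adaptor of T cells, mast cells and platelets. Lat read 1909, 1313.3 and 1789.9 on the Klf4-deficient arrays, against 1733.3, 472.4 and -1.6 on the WT arrays. Il7r, the interleukin-7 receptor chain, read 18.5, 221.5 and 50.6 on the Klf4-deficient arrays, against 40.4, 33.6 and 350.4 on the WT arrays. Cd8a, Cd8b1 and Lat were thus above 32 in all 3 Klf4-deficient arrays, as Thy1 was, but also in WT replicates 1 and 2, where Thy1 was not. The part of T cells in the Thy1 difference was not tested.

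**Figure D2:**
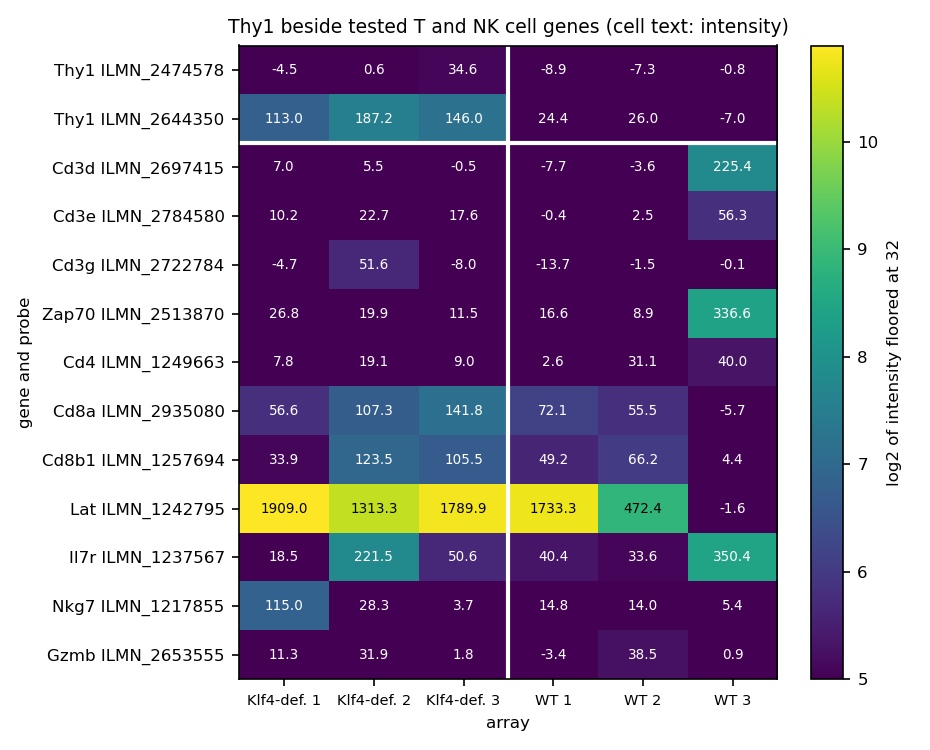
Both Thy1 probes (top rows) and the 11 tested T and NK cell genes (rows below the white line) on the 3 Klf4-deficient arrays (left) and 3 WT arrays (right). Colour gives log2 of intensity floored at 32 and the text in each cell the deposited intensity. Thy1 ILMN_2644350 is above 32 on the Klf4-deficient arrays only, while each CD3 gene exceeds 32 only on WT replicate 3 or Klf4-deficient replicate 2. Lat, Cd8a and Cd8b1 are above 32 on the Klf4-deficient arrays and on WT replicates 1 and 2.

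Differences of the brighter member probes had wide errors. Intervals of the probes with high single readings ran from -3.17 to 2.70 for Kit ILMN_1216898, from -3.04 to 1.75 for Kit ILMN_1246876 and from -4.21 to 2.35 for Cd48. For these members a severalfold change in either direction lies within the interval. Leaving out each array in turn moved Kit ILMN_1216898 between -0.83 and 0.95, Kit ILMN_1246876 between -1.15 and 0.36, Flt3 ILMN_2761370 between -1.17 and 1.21 and Cd48 between -1.63 and 0.48. For Thy1 ILMN_2644350 only the Klf4-deficient omissions could move the bound, which lay between 2.01 and 2.37.

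**Figure D3:**
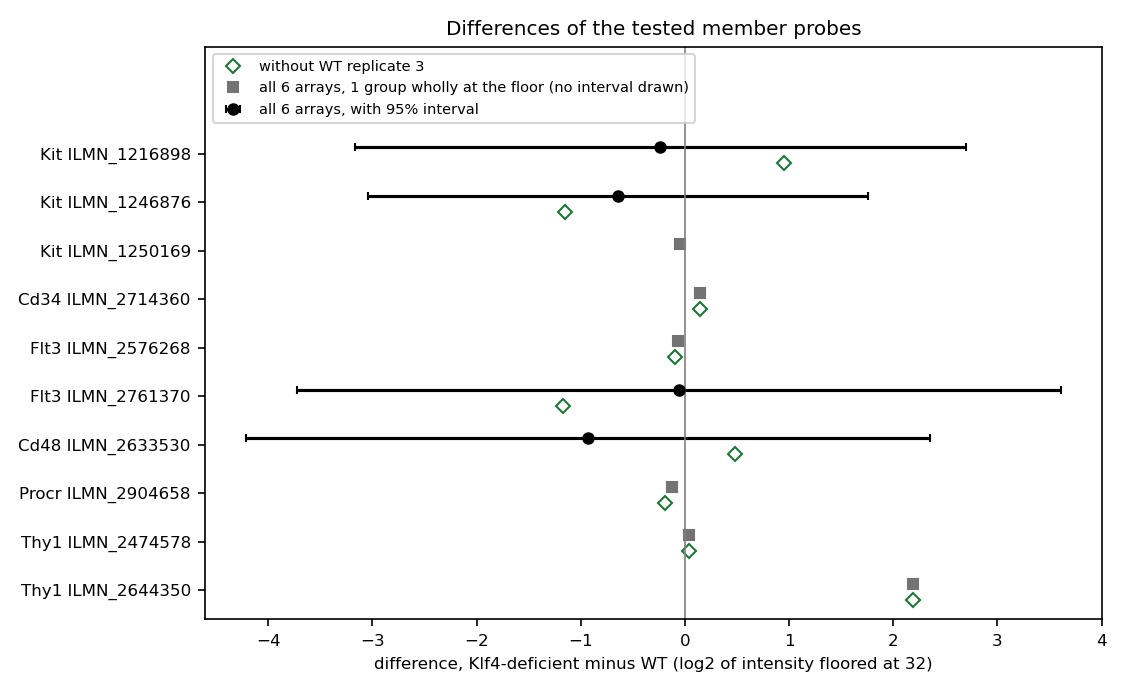
Difference in log2 of floored intensity, Klf4-deficient minus WT (x axis), for the 10 tested member probes (rows), from limma. Black points with bars give the value from all 6 arrays and its 95% interval, grey squares the value of probes with 1 group wholly at the floor, which is a bound and has no interval drawn, and open diamonds the value without WT replicate 3, absent where the probe then lay at the floor on all arrays. Each of the 4 intervals drawn, for Kit, Flt3 and Cd48, includes 0, and the bound of Thy1 ILMN_2644350 is 2.19.

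**Figure D4:**
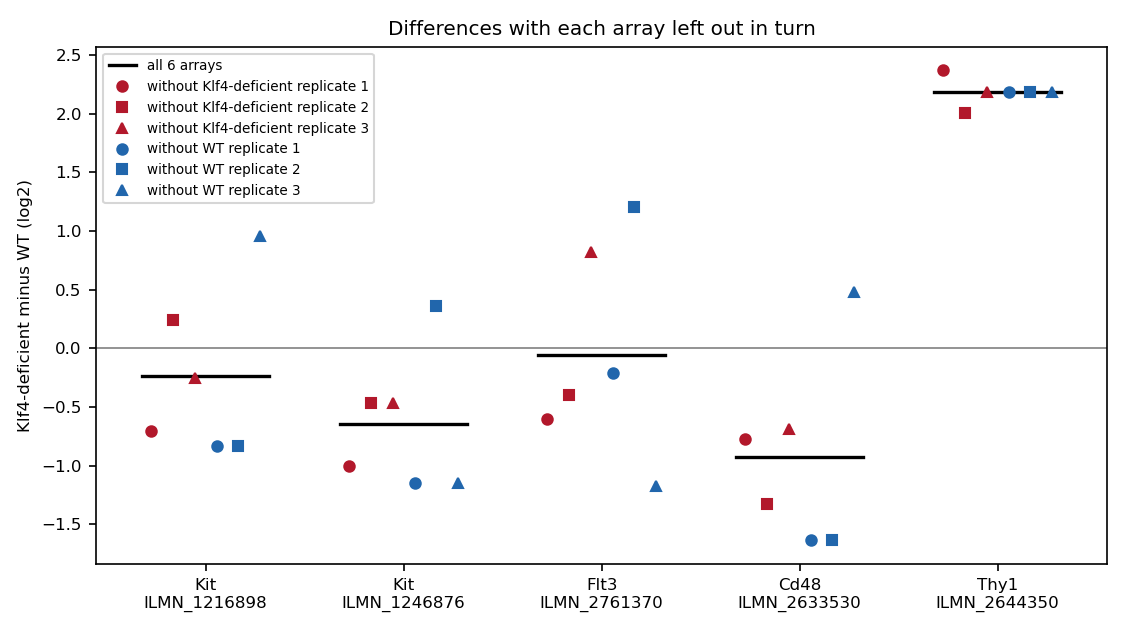
Difference, Klf4-deficient minus WT (log2, y axis), of the 5 member probes above 32 on at least 2 arrays. The black line is the value from all 6 arrays, red symbols leave out 1 Klf4-deficient array and blue symbols 1 WT array. Kit, Flt3 and Cd48 lie on both sides of 0. Thy1 is at the floor on all WT arrays, so WT omissions could not move it from 2.19.

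Other surface proteins of stem and progenitor cells gave a wider view of the same kind of gene. Of 41 such genes, 39 had a probe and 26 were tested, with 11 differences above 0, 15 below and 0 called (median -0.13, or -0.02 without WT replicate 3). Cd81, a tetraspanin of the cell surface, read 388.1, 576.5 and 300.3 on the Klf4-deficient arrays, against 71.8, 113.4 and -4.6 on the WT arrays. The 2 groups did not overlap, which held for 1 of the 26 tested genes of the list and for 2.13% of all tested probes in that direction. The difference of 2.67 ± 0.55 (log2 scale, SE, 3 arrays a group) did not pass the test (limma unadjusted p = 0.0040, adjusted p = 0.71). It was 2.17 without WT replicate 3. Cd53, another tetraspanin and the brightest of the list, read 543.8, 721.7 and 829.5 on the Klf4-deficient arrays, against 166, 804.5 and 140.5 on the WT arrays, and its groups overlapped. Esam, Eng, Alcam and Prom1, which also mark stem cells, stayed at or below 32 on all arrays.

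Of 13 surface genes named for CML stem cells, 11 were tested, with 7 differences above 0, 4 below and 0 called (median 0.21, or 0.15 without WT replicate 3). Il1rap, a receptor subunit of interleukin-1 and interleukin-33 that marks CML stem cells in humans, read 38.1, 38.3 and 32.1 on the Klf4-deficient arrays, against 20.4, 35.7 and 323.9 on the WT arrays. Il2ra (CD25) exceeded 32 in WT replicate 3 only (55.9), and Dpp4 (CD26) in Klf4-deficient replicate 2 only (49.1). The brightest members were Ifitm1 and Ifitm3, interferon-induced membrane proteins. Ifitm1 read 723, 831.4 and 413.3 on the Klf4-deficient arrays, against 334.1, 725.1 and -2.2 on the WT arrays, and Ifitm3 read 427.2, 751.4 and 557 against 246, 882.5 and 78.4. Both had their lowest reading in WT replicate 3, and their groups overlapped.

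For the 4 members above 32 on at least 3 arrays, the named genes with the most similar profile were looked up among 4968 probes, by the root mean square difference of log2 values centred on each probe's mean over the 6 arrays. For Thy1 ILMN_2644350, whose own root mean square deviation was 1.11, the nearest were Mlst8 at 0.16, Xkr6 at 0.23 and Hnrnpll at 0.24. Mlst8, a subunit of the mTOR complexes, read 86.5, 176.2 and 162.1 on the Klf4-deficient arrays, against -6.4, 0.1 and -3.2 on the WT arrays. For Kit ILMN_1216898 (1.32) they were Vmn2r51 at 0.13, Trmt2a at 0.21 and Piga at 0.25, all highest in WT replicate 3. For Flt3 ILMN_2761370 (1.64) they were G3bp2 at 0.31, H3f3a at 0.42 and Prkacb at 0.54, all highest in WT replicate 2. For Cd48 (1.54) they were Kansl2 at 0.22, Mt2 at 0.26 and Rnps1 at 0.27, again highest in WT replicate 3. With 6 arrays and this many probes close profiles are common, and the list is a description.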

How the data were processed

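The deposited table holds 1 intensity per probe and array on a linear scale, for 6 arrays. Per the labels' protocols, a service laboratory prepared targets, hybridised, scanned and analysed images, and the submitters' processing notes name BeadStudio. Its version and its background and normalization methods are not given in the sources at hand. The authors had subtracted a background (45.3% to 45.6% of values were at or below 0), and the columns shared 1 scale (medians 1.6 to 1.7). Every array had the same minimum, -31, and the same maximum, 37007.2, with upper quartiles of 15.1 to 15.6. The arrays, WT replicate 3 included, had thus been brought to nearly the same distribution. Array totals and the share of all probes above 32 therefore carry no information on RNA amount. The number of arrays limits the precision.

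Values below 32 were set to 32 and log2 was taken, with no further normalization. Each of the 18270 probes above 32 on at least 1 array was a feature in limma 3.58.1 (lmFit, eBayes; R 4.3.3), Klf4-deficient minus WT, without block, with Benjamini-Hochberg adjustment over all of them and a threshold of 0.05. Fold changes against the floor are bounds. Probes were named through the platform annotation: 34885 had 1 symbol, 18 several and 10378 were not listed. In other gene lists a gene was represented by its brightest probe. Named from those lists were the 2 brightest tested genes and up to 2 with non-overlapping groups and the smallest p, beside genes that define a cell type. For the megakaryocyte, monocyte and B cell lists not all of these genes are named. Members and lists were chosen with earlier results of these data known. The fit was tested on simulated data that were not floored, so that test does not cover probes with a group at the floor. Neither probe sequences nor genome positions were used. Figures were drawn with matplotlib 3.10.9.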

Additional observations from a re-analysis of the deposited data

How the results depend on the processing

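Over 11 alternative settings and 6 single-array omissions, 146 values of the 10 tested member probes were obtained, of which 135 kept their direction, 11 turned it and 0 were called. Many of the 135 could not have turned. The 2 other filters, trend and robust eBayes, the replicate block and the brightest probe per gene return the main difference and change only its error. Omitting an array cannot turn a probe above 32 on 1 array. The count of 135 is therefore no measure of stability. Thy1 ILMN_2644350 stayed between 1.11 (mean of both probes) and 2.75 (floor of 16), with adjusted p of 0.21 to 0.92. Kit ILMN_1216898 turned to 0.056 with a floor of 16, 0.79 with array weights (WT replicate 3 then had a weight of 0.0648), 0.24 when Klf4-deficient replicate 2 was left out and 0.95 without WT replicate 3, in a range of -0.83 to 0.95 over single-array omissions. Kit ILMN_1246876 turned to 0.36 without WT replicate 2 (range -1.15 to 0.36). Flt3 ILMN_2761370 turned to 0.28 with a floor of 16, 0.19 with an offset of 32, 0.82 when Klf4-deficient replicate 3 was left out and 1.21 without WT replicate 2 (range -1.17 to 1.21). Cd48 turned to 0.41 with array weights and 0.48 without WT replicate 3 (range -1.63 to 0.48). Where no array was left out, the cause was not tested. Probes above 32 on 1 array gave no value without that array.

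The number of probes called was 0 and became 1 with no filter on dim probes and 1 after averaging the probes of each gene. The probe was in both cases the unnamed ILMN_2944601 (2.22, limma adjusted p = 0.00037 and 0.042), singled out after its values were seen. It read 148.4, 151.6 and 146.5 on the Klf4-deficient arrays, against 28.4, 29 and 4.5 on the WT arrays. All WT readings were set to the floor, so that group adds no spread to the error, as for Thy1 ILMN_2644350. The difference is a bound, and these p-values do not measure the spread of the WT arrays. Omitting single arrays gave 0 calls each time. The titles give both groups replicate numbers 1 to 3. With the replicate block, 0 probes were called and 362 reached an unadjusted p under 0.05, against 371 without it. Deviations of same-numbered arrays from their group means correlated at 0.032, 0.04 and 0.04 across probes. Each array correlated best with its own number, a hint from the data and not from the design, and the numbers were not taken to pair the samples. Low signal limits these results, since 60.7% of readings of tested probes did not exceed 32.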

Other observations

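Lists of further cell types that the sort could hold were read in the same way, with 0 genes called in each. Of 16 erythroid genes, 12 were tested, with 9 differences above 0 and 3 below (median 0.61, or 0.44 without WT replicate 3). Alas2, the first enzyme of haem synthesis in erythroid cells, read 172, 114.1 and 160.7 on the Klf4-deficient arrays, against 8.8, 26.1 and -15 on the WT arrays, so that its profile resembled that of Thy1 in being above 32 on the Klf4-deficient arrays only. With all WT readings at the floor it was at least 4.58-fold higher (limma adjusted p = 0.59), a bound whose WT side has no spread. Groups did not overlap for 3 of the 12 tested genes, Alas2, Hbb-bt and Car1, all higher, against 2.13% of all tested probes in that direction. The list was not tested as a set. Without WT replicate 3 the difference of Hbb-bt went from 2.85 to 0.96 and that of Car1 from 2.05 to 0.58. Globin genes were bright in most arrays. Hbb-bs, the brightest of the list, read 3815.3, 4913.4 and 4552.9 on the Klf4-deficient arrays, against 2511.1, 5176.6 and 1080 on the WT arrays. Its groups overlapped, as did those of Hba-a1 and Hbb-b2. Hbb-bt, a beta-globin, read 2971.1, 3143.6 and 3332.5 on the Klf4-deficient arrays, against 906, 2870.3 and 7.6 on the WT arrays. Near-identical globin copies may share a probe's signal.

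Of 13 neutrophil lineage genes, 10 were tested, with 5 differences above 0 and 5 below (median -0.01, or -0.11 without WT replicate 3). Mpo, the brightest, read 2313.4, 1488.5 and 1422.1 on the Klf4-deficient arrays, against 3117, 1735.2 and 7153.2 on the WT arrays. S100a9 read 35.2, 409.1 and 986.3 against 124.2, 246.6 and 2.9, and for both genes the groups overlapped. Ms4a3, a membrane protein of granulocyte and monocyte progenitors, read 87.5, 33.8 and 69 on the Klf4-deficient arrays, against 455.2, 270.1 and 236.7 on the WT arrays, a difference of -2.39 ± 0.46 (limma adjusted p = 0.71) that was -2.57 without WT replicate 3. The groups did not overlap on this probe, as on 0.958% of all tested probes in that direction. Of 10 megakaryocyte genes, 4 were tested, with 2 above 0 and 2 below (median -0.41, which turned to 0.26 without WT replicate 3). The monocyte and macrophage list had 5 of 10 genes tested, 1 above 0 and 4 below (median -0.47, or -0.14 without WT replicate 3, with 2 above and 2 below), and the B cell and lymphoid progenitor list 3 of 11, with 2 above 0 and 1 below (median 0.15, or 0.40 without WT replicate 3, with 3 above and 0 below). Csf1r, the receptor of monocytes and macrophages, read 30.1, 18.1 and 43.5 on the Klf4-deficient arrays, against 34.7, 23.8 and 274.3 on the WT arrays, with its highest reading in the array in which Cd48 and Kit ILMN_1216898 were also highest.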
